A study of Felis catus with 2 samples.

Results

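The genes described here belong to the angiopoietin-TEK pathway and to the endothelium of the aqueous outflow vessels: TEK, TIE1, ANGPT1, ANGPT2, SVEP1, FLT4, PROX1 and PTPRB. They were taken by name, as the rows of the deposited expression table whose gene name was exactly one of these symbols. Each of the 8 names stood on 1 row of the 32065 loci in the table, of which 21462 carry a name. Polyadenylated RNA came from the iridocorneal angle and ciliary body of 2 cats, together with the sclera and trabecular meshwork next to them. One was a 2-month-old cat with primary congenital glaucoma (PCG), a trait that is recessive in its colony and that the study assigned to a short insertion in exon 8 of LTBP2. The other was an unrelated healthy cat of the same age, given as the normal control. The genotype of either cat at other loci and the number of eyes pooled were not given in the sources used here.

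Angiopoietins are secreted ligands of TEK (also called TIE2), a receptor tyrosine kinase of endothelial cells, which is kept active by ANGPT1 and modulated by ANGPT2, its related receptor TIE1 and the phosphatase PTPRB. In the eye this pathway is needed to form Schlemm's canal, the vessel that drains aqueous humor into the veins, and loss of TEK or ANGPT1 function is a known cause of congenital glaucoma in people and mice. The canal endothelium has features of both blood and lymphatic vessels, among them PROX1 and FLT4. In cats the corresponding vessels are called the angular aqueous plexus.

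Of the 7 genes with a usable value, 6 were lower and 1, PROX1, was higher in the affected cat. The levels are FPKM, fragments scaled by transcript length and library size, so that they can be compared between genes. There was 1 library per condition, so no difference had a replicate check, no p-value was calculated, and every comparison below describes these 2 libraries. The deposited values correspond to a scale of about 71147000 fragments for the normal cat and 67559000 for the affected cat, so 1 fragment on 1 kb was worth 0.0141 and 0.0148 FPKM. The 95% intervals given below cover counting error alone and were calculated for 1 kb of effective transcript length, which the table does not give. A longer transcript has a narrower interval. Log2 ratios are log2 of (affected FPKM + 1) over (normal FPKM + 1), a scale that understates the change of low genes, and they were compared with those of the 16676 loci that reached 1 FPKM in at least 1 library. The median log2 ratio of those loci was −0.0047, so the libraries as a whole were nearly level. Because whole tissue was measured, fewer cells of a type and less RNA per cell cannot be told apart.

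**Figure D1:**
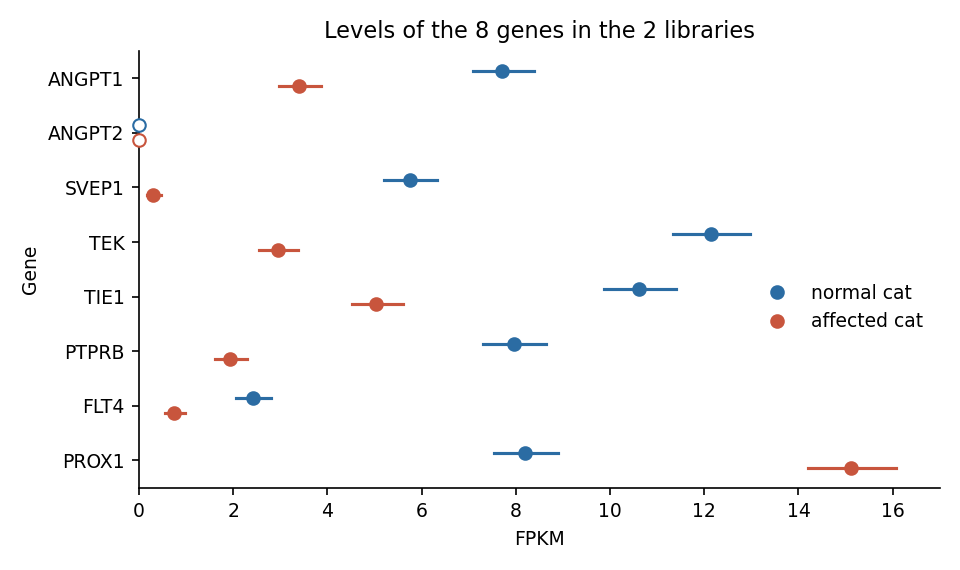
FPKM (horizontal axis) of the 8 genes (vertical axis) in the normal (blue) and the affected (red) library, with 95% intervals that cover counting error for 1 kb of transcript. In the affected library 6 genes are lower and PROX1 is higher, at 15.1 against 8.20 FPKM. The intervals do not cover differences between animals, and the open circles mark ANGPT2, listed at 0 in both.

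The ligand ANGPT1, the activating angiopoietin, lay on felCat5 chromosome F2 from 51874267 to 52115819 (locus XLOC_029773). Its level was 7.71 FPKM in the normal cat and 3.39 FPKM in the affected cat. It was thus 2.27-fold lower in the affected cat (counting interval 1.95 to 2.67), with a log2 ratio of −0.99. Of all loci compared, 8.93% had a lower log2 ratio.

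ANGPT2, the ligand that can oppose or mimic ANGPT1, was listed at 0 FPKM in both libraries. Its locus, XLOC_030171, lies on the unplaced scaffold JH408484.1 from 757917 to 1026362, and MCPH1, a gene of chromosome condensation, is listed with the same span and also at 0 in both. Of 3326 spans that several loci share, 22 (0.661%) were listed at 0 throughout. GAPDH and RPL19, which are used by all cells, were listed at 0 in both libraries as well. Of 23517 spans that hold a single locus 3312 (14.1%) were listed at 0 in both, as were 801 of the 15310 rows with a symbol. The value of ANGPT2 was not read as absence, and its ratio to ANGPT1 was not calculated.

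SVEP1, a large secreted matrix protein needed for lymphatic vessel growth and changed in some patients with congenital glaucoma, differed most. Its locus (XLOC_023657) spans 73003142 to 73182277 on chromosome D4. The level was 5.75 FPKM in the normal cat and 0.290 FPKM in the affected cat, which corresponds to 409 and 20 fragments per kb. The affected value was 19.8-fold lower (counting interval 12.4 to 32.1). On the log2 scale the difference was −2.39, and 1.02% of all loci had a lower ratio. The low affected level makes this ratio sensitive to the pseudocount, and it was −3.91 with a pseudocount of 0.1 FPKM.

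The receptor TEK had the highest level of the 7 genes in the normal library. It lies on the same chromosome as SVEP1, D4, from 52635705 to 52743171 (XLOC_023045), and no other locus overlaps it. TEK was listed at 12.1 FPKM in the normal cat and 2.95 FPKM in the affected cat, and was 4.12-fold lower in the latter (counting interval 3.53 to 4.83). The log2 ratio was −1.74, and 2.61% of all loci had a lower one. In the normal library TEK exceeded 60.3% of the loci compared, and in the affected library 27.0%.

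TIE1, the receptor without a classical angiopoietin ligand that pairs with TEK, differed less. Its locus (XLOC_014533) covers 33041379 to 33061358 on chromosome C1. The levels were 10.6 FPKM in the normal cat and 5.03 FPKM in the affected cat, a 2.11-fold lower value (counting interval 1.85 to 2.40). The log2 ratio was −0.94, and 9.73% of all loci had a lower one. TEK stood above TIE1 in the normal library and below it in the affected library. The ratio of TIE1 to TEK was 0.874 in the normal cat and 1.71 in the affected cat, a 1.95-fold difference (counting interval 1.60 to 2.39). A ratio of this kind does not depend on how the libraries were scaled.

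PTPRB, the vascular endothelial phosphatase that removes phosphate from TEK, differed by nearly the same factor as its substrate. The locus (XLOC_013536) lies on chromosome B4 from 97483350 to 97601862, and 1 locus named 5S_rRNA overlaps it. PTPRB was listed at 7.96 FPKM in the normal cat and 1.93 FPKM in the affected cat, 4.13-fold lower in the latter (counting interval 3.41 to 5.04). The log2 ratio was −1.61, with 3.30% of all loci lower. The ratio of PTPRB to TEK was 0.655 in the normal cat and 0.654 in the affected cat. Its affected-to-normal quotient was 0.999, with a counting interval of 0.782 to 1.28 for 1 kb of each transcript. The interval for the true lengths was not calculated.

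FLT4, the receptor for VEGFC that lymphatic and canal endothelium carry, had the lowest normal level of the 7 genes. It lies on chromosome A1 from 90626246 to 90676508 (XLOC_000274). Its level was 2.42 FPKM in the normal cat and 0.733 FPKM in the affected cat, 3.30-fold lower in the latter (counting interval 2.37 to 4.57). Since both values are low, the log2 ratio after addition of 1 FPKM was −0.98, and with a pseudocount of 0.1 FPKM it was −1.59.

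PROX1, the homeobox factor that sets lymphatic identity, was the exception. Its locus (XLOC_028838) is on chromosome F1 from 29168244 to 29221109. PROX1 was listed at 8.20 FPKM in the normal cat and 15.1 FPKM in the affected cat, 1.84-fold higher in the latter (counting interval 1.66 to 2.05). The log2 ratio of 0.81 exceeded those of 88.8% of all loci. PROX1 is also a factor of lens fibre cells and of the inner retina, where it is abundant. The other lens genes were mostly higher in the affected library, and 11 of 14 past the minimum were so, with a median log2 ratio of 1.35. Summed over the lens list the level was 57993 FPKM in the normal cat and 49374 FPKM in the affected cat. CRYAA, the alpha A crystallin, was listed at 22978 FPKM in the normal cat and at 0 in the affected cat, a 0 that was not read as absence, and without it 11 of 13 were higher and the sums were 35015 and 49374 FPKM. CRYBA1, a further crystallin, was listed at 12676 and 14523 FPKM. Of 11 inner retina genes 8 were higher, with a median of 0.52 and a summed level of 661 FPKM in the normal cat and 2391 FPKM in the affected cat. GLUL, the glutamine synthetase of Müller glia, was listed at 347 and 1981 FPKM, and the retinoid carrier RLBP1 at 185 and 261 FPKM. Without these 2 genes the list summed to 130 and 149 FPKM, and TFAP2B, a factor of amacrine cells, was lower at 40.8 and 8.38 FPKM. All 7 photoreceptor genes past the minimum were also higher, with a median of 1.78, among them RCVRN at 149 and 514 FPKM and SAG at 48.2 and 427 FPKM. The part of these tissues in the PROX1 value was not tested.

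In the normal library the order from high to low was TEK, TIE1, PROX1, PTPRB, ANGPT1, SVEP1 and FLT4. TEK was 1.14-fold above TIE1 (counting interval of the ratio 1.04 to 1.26). The ratio of PROX1 to PTPRB was 1.03 (0.916 to 1.16) and that of PTPRB to ANGPT1 was 1.03 (0.915 to 1.16). These intervals included 1 for 1 kb of each transcript, and those for the true lengths were not calculated. In the affected library the order was PROX1, TIE1, ANGPT1, TEK, PTPRB, FLT4 and SVEP1. There the ratio of ANGPT1 to TEK was 1.15 (0.948 to 1.40), and the intervals of the other neighbouring pairs of either library did not include 1. PROX1 thus moved from the third to the first place, TEK from the first to the fourth, and SVEP1 and FLT4 exchanged the last places.

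**Figure D2:**
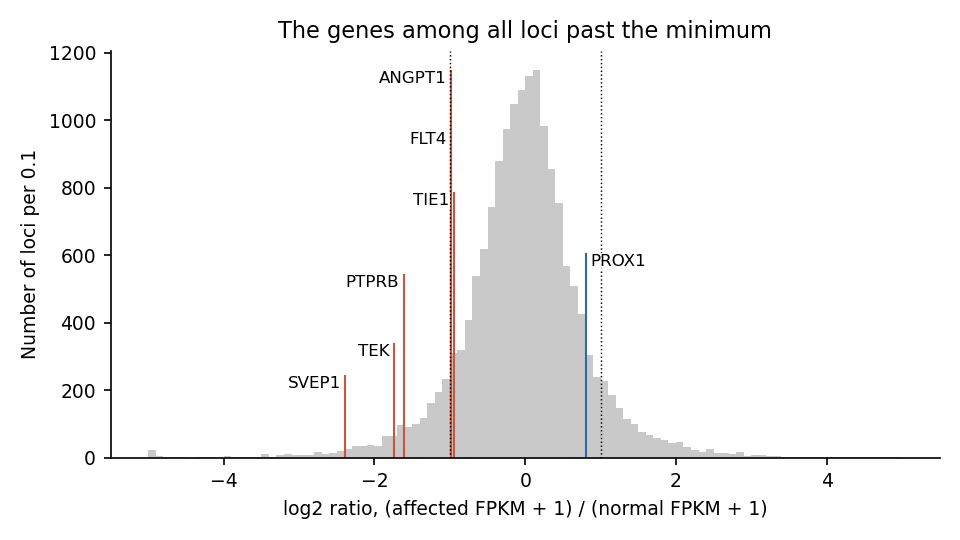
Histogram of the log2 ratio (horizontal axis) over the 16676 loci past the minimum (vertical axis, number of loci per 0.1), with ratios beyond 5 in size drawn in the end bins. Lines of arbitrary height mark the 7 genes, dotted lines mark a 2-fold difference, and SVEP1, TEK and PTPRB lie beyond the lower one while ANGPT1, FLT4 and TIE1 lie next to it.

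On the log2(FPKM + 1) scale 3 of the 7 genes, TEK, SVEP1 and PTPRB, were at least 2-fold lower in the affected library, where 8.75% of all loci were so called. None of the 7 was at least 2-fold higher, against 8.14% of all loci. The median log2 ratio of the 7 genes was −0.99, and it was −1.59 with a pseudocount of 0.1 FPKM and −1.72 with none. ANGPT1, FLT4 and TIE1 lay so close to the threshold that the count depended on the scale. With a pseudocount of 0.1 FPKM 6 of the 7 were at least 2-fold lower, against 13.0% of all loci, and the count was also 6 when each library was rescaled to sum to 1000000, against 11.1% of all loci.

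The 7 genes were next set against CDH5, the cadherin of endothelial junctions, within each library. CDH5 was listed at 20.5 FPKM in the normal cat and 5.61 FPKM in the affected cat. The ratio of TEK to CDH5 was 0.594 in the normal cat and 0.526 in the affected cat, a quotient of 0.886 (counting interval 0.732 to 1.07). PTPRB gave a quotient of 0.885 (0.709 to 1.10) and FLT4 one of 1.11 (0.792 to 1.55). The intervals of these 3 genes included 1 at 1 kb of effective length. Longer transcripts have narrower intervals, so this does not show an equal ratio to CDH5 in the libraries.

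TIE1 and ANGPT1 stood higher relative to CDH5 in the affected library. The quotient was 1.73 for TIE1 (counting interval 1.46 to 2.05) and 1.61 for ANGPT1 (1.33 to 1.94). SVEP1 was lower also relative to CDH5, with a quotient of 0.184 (0.115 to 0.294), which is a 5.44-fold lower ratio. PROX1 had a ratio to CDH5 of 0.400 in the normal cat and 2.69 in the affected cat, a 6.73-fold difference (5.78 to 7.83). PROX1, ANGPT1 and SVEP1 can also come from cells other than endothelium, so their quotients are not levels per endothelial cell. Against the geometric mean of 15 endothelial genes, which was 20.1 FPKM in the normal cat and 4.81 FPKM in the affected cat, TEK and PTPRB had quotients of 1.01 and 1.01. TIE1 then had 1.98, ANGPT1 1.83, FLT4 1.27, SVEP1 0.210 and PROX1 7.69. The log2 ratios of the 15 endothelial genes themselves ranged from −3.005 to −0.24, and those of TIE1, ANGPT1 and SVEP1 lay within that range. A quotient therefore depends on the endothelial gene used as reference.

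**Figure D3:**
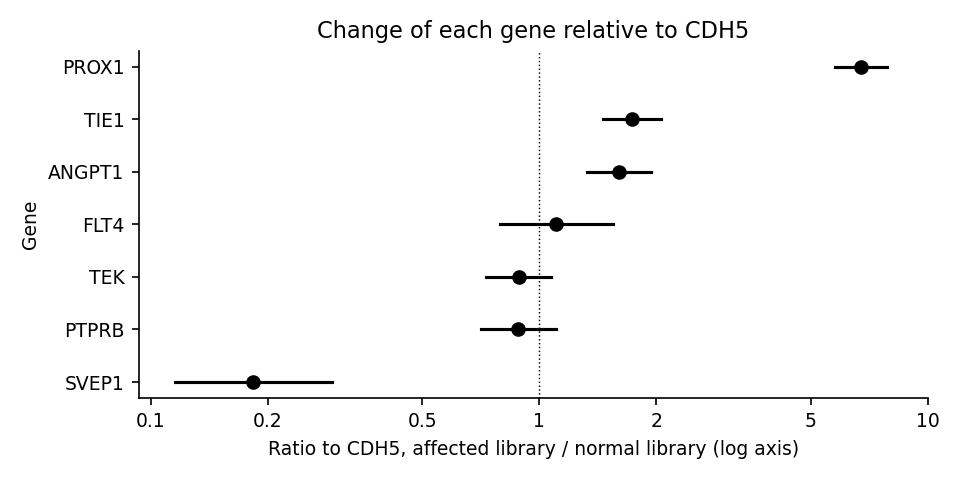
Quotient of each gene's ratio to CDH5, affected over normal library (horizontal log axis), for the 7 genes (vertical axis), with 95% intervals for counting error at 1 kb of transcript. TEK, PTPRB and FLT4 include 1 (dotted line), TIE1 and ANGPT1 lie above it at 1.73 and 1.61, PROX1 lies at 6.73 and SVEP1 at 0.184.

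The 3 genes whose pair of log2(FPKM + 1) levels lay nearest to that of TEK, among 14888 others with a symbol, were NPY, RCOR2 and ITGA5, at distances of 0.038, 0.057 and 0.075 over 2 libraries. NPY was listed at 12.3 and 2.85 FPKM, RCOR2 at 12.6 and 3.001 FPKM and ITGA5, the fibronectin receptor subunit, at 11.5 and 2.99 FPKM in the normal and the affected cat.

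Other genes of angiopoietin-TEK signalling differed in both directions. Of 18 on the list 16 had a row and 14 passed the minimum, of which 10 were lower and 4 higher in the affected library, with a median log2 ratio of −0.22. On the log2(FPKM + 1) scale 2 of the 14 (14.3%) were at least 2-fold lower, where 8.75% of all loci were. Among the adaptors and kinases that act below many receptors, GRB2 was listed at 36.4 and 39.5 FPKM, AKT1 at 81.4 and 76.5 FPKM, PIK3CA at 6.51 and 5.69 FPKM and the phosphatase PTPN11 at 27.5 and 23.6 FPKM in the normal and the affected cat. The regulatory subunit PIK3R1 was listed at 40.4 and 29.4 FPKM and the adaptor GRB14 at 3.71 and 2.73 FPKM, both lower in the affected cat, whereas GRB7 was listed at 3.08 and 3.56 FPKM and TNIP2, which binds a regulator of NF-kB, at 5.99 and 8.43 FPKM. The integrin subunit ITGB1 was listed at 190 and 120.9 FPKM. FOXO1, the transcription factor that TEK signalling holds in check, was listed at 11.7 and 9.79 FPKM. The third angiopoietin, ANGPT4, was listed at 7.57 and 8.07 FPKM, so that it was level where ANGPT1 was lower. The 2 genes at least 2-fold lower on that scale were ANGPTL1, an angiopoietin-like secreted protein, at 3.84 and 0.769 FPKM, and ITGA5, which were 4.996-fold and 3.84-fold lower in FPKM. NOS3, the endothelial nitric oxide synthase, was listed at 4.07 and 1.65 FPKM, 2.46-fold lower in FPKM but just short of 2-fold on that scale. The TEK adaptor DOK2 and the kinase BMX stayed below 1 FPKM in both libraries.

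In the VEGF family 6 of 8 genes were lower and 2 higher, with a median log2 ratio of −0.48. VEGFC, the ligand of FLT4, was listed at 14.2 FPKM in the normal cat and 6.72 FPKM in the affected cat, 2.12-fold lower in the latter, against 3.30-fold for its receptor. PGF was listed at 12.1 and 4.45 FPKM and the co-receptor NRP1 at 22.3 and 5.93 FPKM. The main vascular ligand VEGFA was nearly level at 32.8 and 30.3 FPKM. Of the VEGF receptors, KDR was listed at 22.3 and 15.4 FPKM, whereas FLT1 was higher in the affected library at 9.35 and 16.9 FPKM. The other higher gene was VEGFB at 92.2 and 112 FPKM, and NRP2 was lower at 15.9 and 11.3 FPKM.

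Genes of Schlemm's canal and lymphatic-like endothelium other than FLT4 and PROX1 were mostly lower, 10 of 14 past the minimum, 5 of them at least 2-fold on the log2(FPKM + 1) scale (against 8.75% of all loci), with a median log2 ratio of −0.77. The lymphatic chemokine CCL21 was listed at 8.86 FPKM in the normal cat and 0.493 FPKM in the affected cat, and the lymphatic matrix protein MMRN1 at 4.24 and 0.464 FPKM. CCL21 was 18.0-fold and MMRN1 9.14-fold lower. FOXC1, a forkhead factor of anterior segment development, was listed at 28.7 and 8.94 FPKM, the gap junction gene GJA1 at 683 and 217 FPKM, and the scavenger receptor STAB1 at 6.91 and 2.67 FPKM. EFNB2, an ephrin ligand of arterial endothelium, was listed at 23.4 and 11.3 FPKM, 2.08-fold lower in FPKM and just short of 2-fold on the log2 scale. The hyaluronan receptor LYVE1 was listed at 9.70 and 6.31 FPKM. Higher in the affected library were CCBE1, which helps to activate VEGFC, at 5.82 and 10.6 FPKM, and RELN at 24.6 and 38.5 FPKM. PDPN and ITGA9 were nearly level at 59.9 and 66.5 FPKM and at 9.75 and 10.3 FPKM. NR2F2, a venous factor that partners PROX1, was listed at 0 in both libraries and was treated like ANGPT2. Among the 20 genes of this list 3 had no row of that name and were not analysed here.

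Marker genes of the cells that can carry these transcripts also differed. All 15 vascular endothelium genes with a row were lower, 13 of them at least 2-fold on the log2(FPKM + 1) scale (against 8.75% of all loci), with log2 ratios from −3.005 to −0.24, a median of −1.93 and a summed level of 392 FPKM in the normal cat and 93.7 FPKM in the affected cat. CD34 was listed at 75.8 and 10.2 FPKM and ENG at 41.0 and 16.7 FPKM, and 5 genes of the list, PECAM1 among them, were not analysed here. The 11 mural cell genes, which mark the pericytes and smooth muscle that surround vessels, had a median of −0.77, with 8 lower. ACTA2 was listed at 600.0 and 699 FPKM and TAGLN at 501.0 and 199 FPKM. The stromal fibroblast genes, a source of ANGPT1 and SVEP1 in many tissues, had a median of −2.40, with 8 of 10 lower and a summed level of 4419 FPKM in the normal cat and 1157 FPKM in the affected cat. COL1A2 was listed at 0 in the normal cat and at 447 FPKM in the affected cat, a 0 that was not read as absence. Without COL1A2 8 of 9 were lower, with a median of −3.04 and sums of 4419 and 710 FPKM, and FBLN1 was higher at 224 and 506 FPKM. COL1A1 was listed at 2476 and 41.8 FPKM and DCN at 686 and 82.2 FPKM. Of the 9 trabecular meshwork genes 5 were higher and 4 lower, with a median of 0.51, among them MYOC at 150 and 302 FPKM and MGP at 455 and 52.9 FPKM. The part of these cell types in the values of the 7 genes was not tested.

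**Figure D4:**
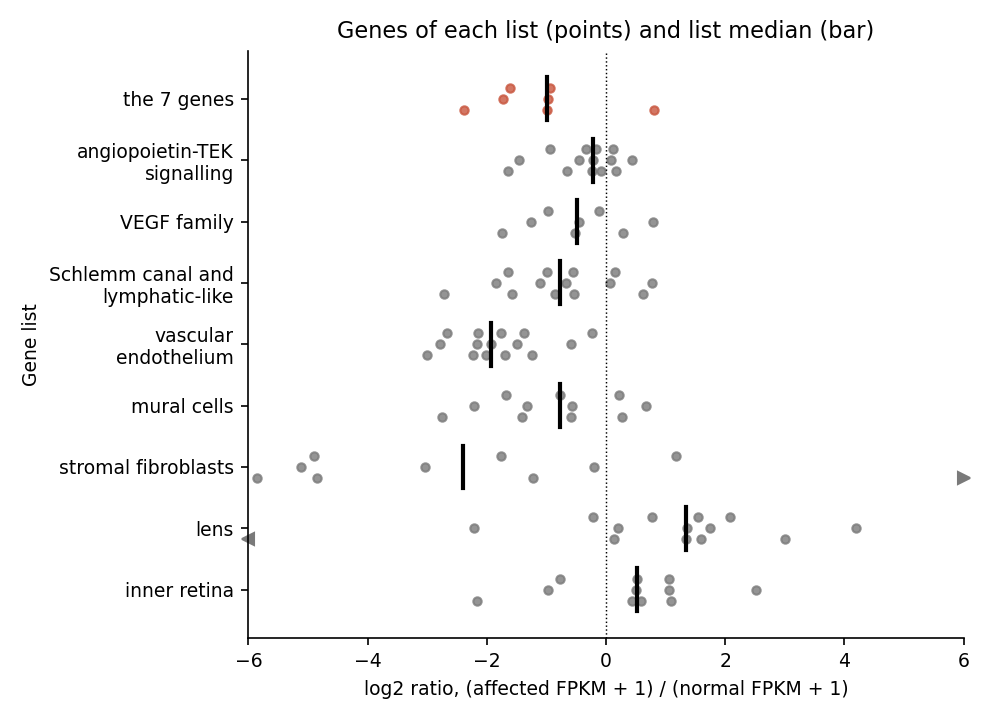
Log2 ratio (horizontal axis) of the genes past the minimum in 9 lists (vertical axis), with the median of each list as a bar, the 7 genes described here in red, and triangles for CRYAA and COL1A2, beyond 6 in size and listed at 0 in 1 library. The 7 genes have a median of −0.99 and range from −2.39 (SVEP1) to 0.81 (PROX1), beside medians of −0.77 for the Schlemm's canal and the mural cell list, −0.22 for signalling and −1.93 for vascular endothelium.

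All 10 cell division genes were lower in the affected library as well, with a median log2 ratio of −2.23, and CDK1 was listed at 25.9 and 1.69 FPKM and AURKB at 15.5 and 4.49 FPKM. Of 7 ciliary epithelium genes 5 were higher, with a median of 1.79, and COL9A1 was listed at 404 and 1718 FPKM and COL9A2 at 356 and 1391 FPKM. With 1 cat per condition the disease, the animal and the dissection cannot be told apart.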

How the data were processed

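The deposited table holds 1 FPKM value per locus for each of 2 libraries, which the authors calculated with Cufflinks 2.1.1 after alignment to felCat5 with TopHat2 2.0.9 and Ensembl gene predictions. Any filter on loci and the scaling between the libraries are not given in the sources used here. Columns were matched to the libraries by their names.

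Names were matched exactly, and where a name stood on several rows the row with the higher mean was used. Log2 ratios used the deposited FPKM with a pseudocount of 1 and loci that reached 1 FPKM in either library. No count model was fitted to FPKM, and 1 library per condition allowed no test. The fragment scale was read from the spacing of low values at unnamed loci of 400 to 1500 bases, with the span as the transcript length. At 2149 such loci for the normal cat and 1981 for the affected cat, 98.5% and 98.5% of values lay within 0.03 of a whole fragment. Intervals are exact Poisson or binomial limits, and for quotients of ratios the normal approximation on the log scale. The call of a 2-fold difference was tested on simulated data, with 4-fold changes at loci of at least 5 FPKM and counting noise alone. The reading of the fragment scale was also tested on simulated data. The intervals, quotients and list medians were not.

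The genes described and the lists were chosen with earlier results of these data known. The text names these genes, the signalling, VEGF and Schlemm's canal lists, CDH5, the 2 genes with the highest mean FPKM of each other list, the 3 genes nearest to TEK, and, chosen after their values were seen, MCPH1, COL1A2, FBLN1, TFAP2B, GAPDH and RPL19. PECAM1 was to serve beside CDH5 but is not among the names matched. Sequences of the genes were not used here. Python 3.11.15, numpy 2.4.6, pandas 2.3.3, scipy 1.17.1 and matplotlib 3.10.9 were used. Alternatives were a pseudocount of 0.1, 2 rescalings, no minimum, a minimum mean of 5 FPKM, a 4-fold threshold, sums of repeated rows, list means and a further endothelial reference, and, added after the data were examined, no pseudocount and lists without genes at 0 in a single library or without the 2 inner retina genes of highest mean.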

Additional observations from a re-analysis of the deposited data

How the results depend on the processing

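The direction of each of the 7 genes was the same under every alternative that kept the gene, and none of 46 recomputed log2 ratios changed sign. The number of genes at least 2-fold lower was 6 in place of 3 with a pseudocount of 0.1, after each library was rescaled to sum to 1000000 and without a pseudocount, an alternative that was added once the data had been seen, and it was 1 under a minimum mean of 5 FPKM (TEK), which left 4 of the genes. On the log2(FPKM + 1) scale 1 gene (SVEP1) was at least 4-fold lower, against 3 in FPKM. Their median was −1.59 with a pseudocount of 0.1 and −1.72 with none. Loci at least 2-fold lower and higher numbered 691 (6.46%) and 815 (7.62%) of 10691 under that minimum mean, and 2199 of 16534 (13.3%) were at least 2-fold lower with no pseudocount. Loci at least 4-fold lower and higher on the log2(FPKM + 1) scale numbered 298 (1.79%) and 280 (1.68%) of 16676. The cell division median was −3.40 and −3.58 with a pseudocount of 0.1 and with none, and the stromal fibroblast median −3.06 with none and −3.04 without COL1A2, which is listed at 0 in the normal library. With means instead of medians, stromal fibroblasts had −1.70, lens 0.075 and ciliary epithelium 0.92. The cause of these list shifts was not tested. Rescaling moved the median of all loci to at most −0.053. Relative to the endothelial mean in place of CDH5, TEK and PTPRB changed from −0.17 and −0.18 to 0.017 and 0.015 on the log2 scale, which crosses 0. The depth gave SVEP1 20 fragments per kb in the affected library, the lowest of the 7 genes. No paired analysis was possible because the normal and the affected group hold a single library each.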
